A study of Mus musculus with 48 samples.

Results

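Cirbp and Rbm3 encode the cold-inducible RNA-binding proteins CIRBP and RBM3, and their mRNA levels were followed in muscle cells that were kept under cyclic stretch over 1, 3 or 6 h. Both genes were taken by name, 2 of the 47480 gene symbols with a count in each of the 2 tables, and both passed the filter on low counts in all 6 comparisons. The cells were C2C12, an established line of mouse myoblasts that fuse into multinucleated muscle cells when they differentiate in culture. Undifferentiated cells (myoblasts) and cells after 4 days of differentiation (differentiated cells) were stretched by 16% in repeated cycles and in all directions of the plane, on the flexible collagen-coated plates of a Flexcell system. Non-stretched cells were cultured in the same way on the same kind of plate and were collected at each time, so that every stretched group had controls of its own. This gave 48 libraries of RNA sequencing in 12 groups of 4.

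CIRBP and RBM3 are small proteins with an RNA recognition motif at the amino terminus and a glycine-rich stretch after it. Their mRNAs are known to rise in mammalian cells under mild cold, below normal body temperature, and to fall when cells are warmed, the opposite of the heat shock genes that encode chaperones. Both proteins bind mRNAs and affect their stability and translation, and RBM3 has also been studied in skeletal muscle for an effect on muscle mass.

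In mm10, Cirbp lies on chromosome 10 from 80165985 to 80172786 on the plus strand, and Rbm3 on chromosome X from 8138975 to 8145880 on the minus strand. The coding sequences of the transcripts Cirbp-202 (519 bases) and Rbm3-204 (465 bases) were compared because reads of close relatives can be confused. The longest run of bases that both coding sequences hold is 11 bases long, at positions 196 to 206 of both, and is shown in capitals with 18 bases on either side.
Cirbp: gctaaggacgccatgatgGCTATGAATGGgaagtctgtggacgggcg
Rbm3: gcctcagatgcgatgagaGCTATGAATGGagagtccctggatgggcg
The 2 stretches differ at 13 of 47 positions. None of the 2655 sequence stretches of 31 bases in the Cirbp transcripts occurs in another gene, whereas 477 of 4891 (9.75%) of those of Rbm3 do. Most of the latter are shared with Rbm3-ps, which has no row in the count tables, and with Gm10156 (18 to 101 counts in a library), far fewer than the 14285 to 52484 counts of Rbm3. The antisense gene Rbm3os overlaps Rbm3 by 452 bases and had 6 to 27 counts.

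The DNA before the Cirbp start is shown because a short element there, TCCCCGCC, is known as the mild cold response element and is bound by the transcription factor SP1. The stretch below covers the 189 bases before the start of Cirbp-202, chr10:80167589-80167777 (plus strand, GRCm38.p6, from RefSeq's genome), with the element in capitals.
Cirbp promoter: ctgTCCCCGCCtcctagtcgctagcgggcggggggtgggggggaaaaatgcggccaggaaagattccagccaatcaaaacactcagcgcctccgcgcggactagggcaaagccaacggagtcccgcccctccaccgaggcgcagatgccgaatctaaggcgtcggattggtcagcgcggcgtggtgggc
The stretch lies within the annotated span of Cirbp, whose earliest transcript starts upstream, but in no annotated exon. The element starts 186 bases before the start of Cirbp-202 and 247 bases before the start that RefSeq gives. The stretch was chosen to run from the first base of RefSeq's promoter window up to Cirbp-202, and the element lies close to its left end. On either strand, the element was found in 2.86% of 32851 promoter windows read over the same 189 positions relative to the RefSeq start. The letters CCAAT occur 2 times in the Cirbp window and in 26.5% of all windows, and GGGCGG, the GC box, 2 times and in 22.6%. These matches describe the letters only. Rbm3 was not matched in the table of promoters.

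The libraries held 48447318 to 77080730 counts, so that Cirbp was measured with 790 to 5587 counts. Levels are given as CPM, counts scaled to the TMM-normalized size of the library, and as the mean ± SD of 4 libraries. The summed level of 7 genes of differentiated muscle (Myog, Myh1, Myh3, Tnnt1, Mef2c, Ckm and Acta1) was 8.62 to 19.2 CPM in myoblast libraries and 10980 to 13397 CPM in differentiated ones, and that of 6 genes of undifferentiated cells (Pax7, Myf5, Id1, Id3, Ccnd1 and Mki67) was 1356 to 1615 and 210.2 to 417 CPM. Markers of leukocytes, endothelium, keratinocytes and adipocytes (Ptprc, Pecam1, Krt5 and Adipoq) together reached at most 0.263 CPM. At 1 h, the stretch-responsive genes Fos, Egr1, Ctgf and Cyr61 rose by at least 0.58 on the log2 scale with an adjusted p under 0.05 in 4 of 4 cases in myoblasts, as 0.254% of all genes did (0.997% fell as much). In differentiated cells 2 of 4 did (Fos and Cyr61), as 0.0901% of all genes (0.18% fell). Each library carries a code in its label: in myoblasts, replicates 7 and 8 share 1 code (B27) and replicates 9 and 10 another (B31), and in differentiated cells the codes are B25 and B28. The stretched differentiated cells at 1 h are numbered 4, 7, 8 and 9. Number 4 alone carries the code B17, so the fold changes of Cirbp and Rbm3 at that time are also given without it. The counts of stretch-responsive genes and the shares of all genes at that time include it. Its summed level of Fos, Egr1, Ctgf and Cyr61 was 3073 CPM, against 1069 to 1101 CPM in stretched replicates 7, 8 and 9.

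The levels of the 2 genes in the controls went in opposite directions with differentiation. Cirbp was at 22.4 ± 2.13 CPM (SD, n = 12) in non-stretched myoblasts and at 57.0 ± 2.55 CPM (n = 12) in non-stretched differentiated cells, 2.55 times as high. Rbm3 was at 692 ± 41.5 CPM (n = 12) in non-stretched myoblasts and at 321 ± 19.1 CPM (n = 12) in non-stretched differentiated cells, so that its level in myoblasts was 2.16 times as high. The ranges of the stages did not touch for either gene, 18.5 to 24.8 against 54.2 to 63.8 CPM for Cirbp and 647 to 782 against 280.4 to 342 CPM for Rbm3. No test was made between the stages because their tables were scaled separately, and in bulk RNA fewer cells of a type and less RNA per cell cannot be told apart. Per kilobase of transcript, Rbm3 was the higher gene in both stages, by 34.0 times in myoblasts and 6.18 times in differentiated cells. These ratios depend on the length taken for Rbm3, here the median of 1204 bases over 6 coding transcripts of 969 to 2792 bases. Cirbp had 1 such transcript, of 1321 bases. By mean CPM, Rbm3 ranked 148 of 15684 genes tested in myoblasts and Cirbp 7129.

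The non-stretched groups of a stage were also compared across the times. In edgeR's quasi-likelihood test between the non-stretched groups of a stage, neither gene passed an adjusted p under 0.05 for any pair of times, a threshold that 1.47% (3 h against 1 h), 1.88% (6 h against 1 h) and 1.93% (6 h against 3 h) of genes passed in myoblasts, and 0%, 0.0123% and 0% in differentiated cells. Of the 12 differences, 3 had an unadjusted p under 0.05, those of Cirbp in myoblasts for 6 h against both earlier times and that of Rbm3 in differentiated cells for 6 h against 1 h. The lowest adjusted p was that of Cirbp in myoblasts, whose controls were lower at 6 h than at 1 h by a log2 difference of -0.28 (SE 0.08, adjusted p = 0.0820). Rbm3 in differentiated cells had a log2 difference of -0.15 between the same times (SE 0.06, adjusted p = 0.368).

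**Figure D1:**
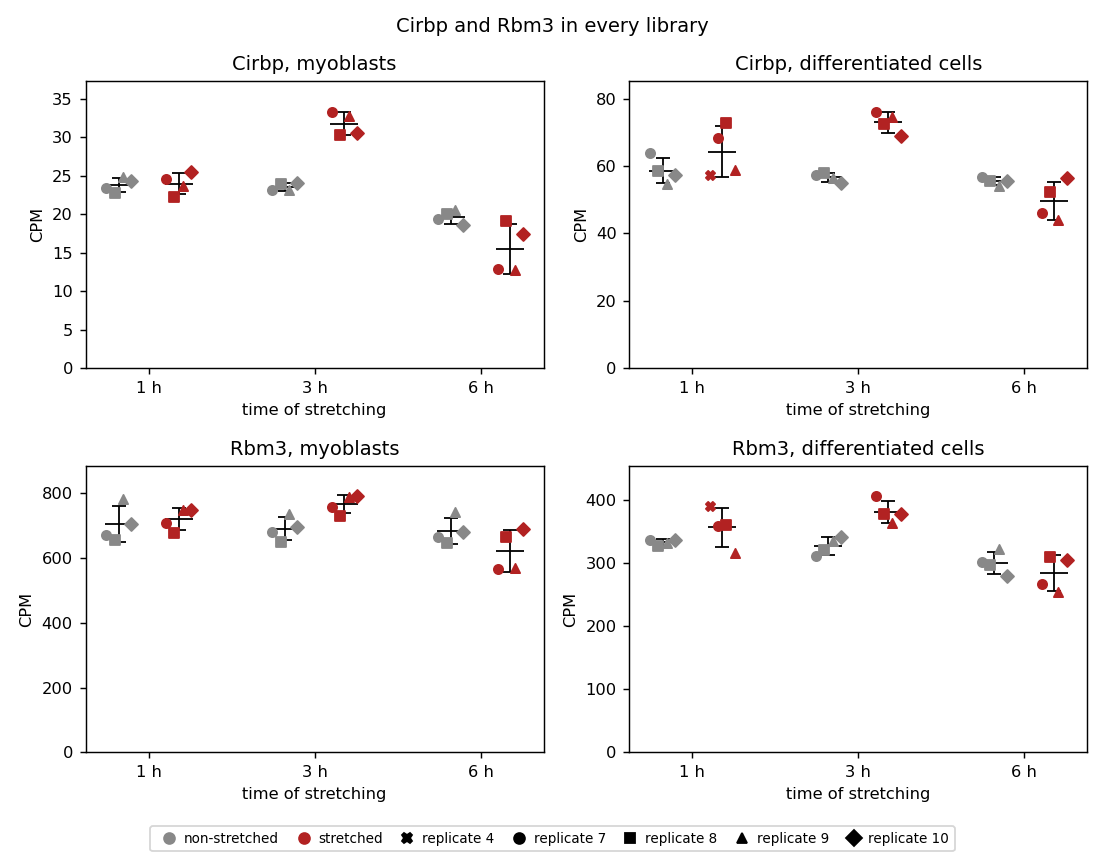
Level of Cirbp (top) and Rbm3 (bottom) in CPM in each of the 48 libraries by time of stretching, for myoblasts (left) and differentiated cells (right). Points are single libraries with the symbol of their replicate, grey without and red with stretching, and bars are the mean ± SD of 4. Stretched Cirbp lies above all controls at 3 h, and at 6 h replicates 7 and 9 lie below them.

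After 1 h of stretching, neither gene differed from the controls beyond the spread of the libraries. Cirbp in myoblasts was at 23.4, 22.8, 24.8 and 24.3 CPM without stretching (replicates 7, 8, 9 and 10) and at 24.6, 22.2, 23.7 and 25.5 CPM with it. The groups lay within each other, with a log2 fold change of 0.01 (95% interval -0.09 to 0.11, adjusted p = 0.937 in edgeR). Rbm3 in myoblasts was at 671, 657, 782 and 706 CPM without and at 708, 677, 749 and 748 CPM with stretching. Its log2 fold change was 0.04 (-0.08 to 0.15, adjusted p = 0.795). The signs in myoblasts are not settled, since with library totals alone the log2 fold change was -0.02 for Cirbp and -0.00029 for Rbm3.

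In differentiated cells at 1 h, Cirbp was at 63.8, 58.5, 54.8 and 57.5 CPM without stretching and at 57.3, 68.2, 72.9 and 58.8 CPM in stretched replicates 4, 7, 8 and 9. Replicates 7 and 8 were above all controls and replicates 4 and 9 were among them. The log2 fold change was 0.13 (-0.05 to 0.32, adjusted p = 0.758), and without replicate 4 it was 0.18 (adjusted p = 0.524). The log2 difference of Cirbp was 0.21 within B25 and 0.07 within B28. Rbm3 was at 337, 328, 333 and 337 CPM without and at 392, 359.6, 360.3 and 317 CPM with stretching. Here replicates 4, 7 and 8 were above all controls, with replicate 4 the highest library, and replicate 9 was the lowest of all 8. The log2 fold change was 0.10 (-0.04 to 0.23, adjusted p = 0.770), and 0.05 without replicate 4 (adjusted p = 0.997). Within the codes it was 0.11 (B25) and -0.08 (B28). Neither gene had an unadjusted p under 0.05 in edgeR at 1 h in either stage, and neither DESeq2 nor any other fit called them. At this time 1.67% of all genes tested in myoblasts passed as higher in stretched cells and 4.24% as lower, and 0.193% and 0.47% in differentiated cells.

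After 3 h, both genes were higher in stretched than in non-stretched cells, in both stages. Cirbp rose by 35.4% in myoblasts and by 29.0% in differentiated cells, and Rbm3 by 11.5% and 16.6%. All 4 of these differences passed an adjusted p under 0.05 (edgeR), which 16% of all genes tested in myoblasts and 10.8% in differentiated cells passed as higher, and 15.8% and 11.4% as lower. None reached the study's added limit of 0.58 on the log2 scale (1.5 times), which 0.459% and 0.89% of genes passed as higher and 1.25% and 0.741% as lower. In glmTreat, which tests for a change beyond that limit, all 4 had an adjusted p of 1. Estimates within the limit could not pass that test, so it adds nothing to the sizes given.

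In non-stretched myoblasts at 3 h, Cirbp was at 23.1, 24.0, 23.2 and 24.1 CPM (replicates 7 to 10), and in stretched myoblasts at 33.3, 30.3, 32.8 and 30.6 CPM. The lowest stretched library was well above the highest control. The means were 23.6 ± 0.515 and 31.8 ± 1.52 CPM (SD, n = 4 each), and the log2 fold change was 0.44 (SE 0.04, 95% interval 0.36 to 0.52, adjusted p = 6.89e-06). By p-value, Cirbp was number 64 of the 14813 genes tested. The log2 difference was 0.43 within B27 and 0.42 within B31.

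In differentiated cells at 3 h, Cirbp was at 57.3, 58.0, 56.5 and 54.9 CPM without and at 76.1, 72.7, 74.5 and 68.9 CPM with stretching. Again every stretched library was above every control. The means were 56.7 ± 1.33 and 73.0 ± 3.09 CPM, and the log2 fold change was 0.37 (SE 0.03, 0.29 to 0.44, adjusted p = 0.000142), number 45 of 15513 genes by p-value. Within the codes B25 and B28 the log2 difference was 0.37 and 0.36.

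Rbm3 had smaller fold changes at 3 h. In myoblasts it was at 681, 650.3, 734 and 697 CPM without stretching and at 758, 730.1, 787 and 790.0 CPM with it. The groups overlapped by a single pair, since stretched replicate 8 was just under non-stretched replicate 9. The means were 690.5 ± 34.9 and 766 ± 28.1 CPM (n = 4 each), with a log2 fold change of 0.16 (SE 0.04, 0.08 to 0.24, adjusted p = 0.00496). This call did not hold when libraries were scaled by their totals alone (log2 fold change 0.11, adjusted p = 0.0551) or when all 24 myoblast libraries shared a fit (0.15, adjusted p = 0.0726). Within the codes the log2 difference was 0.16 (B27) and 0.14 (B31). In differentiated cells Rbm3 was at 311, 322, 335 and 342 CPM without and at 406, 378, 364 and 379 CPM with stretching. All stretched libraries were above all controls, with means of 328 ± 13.7 and 382 ± 17.8 CPM and a log2 fold change of 0.22 (SE 0.04, 0.13 to 0.31, adjusted p = 0.00423). The log2 difference was 0.31 within B25 and 0.13 within B28.

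**Figure D2:**
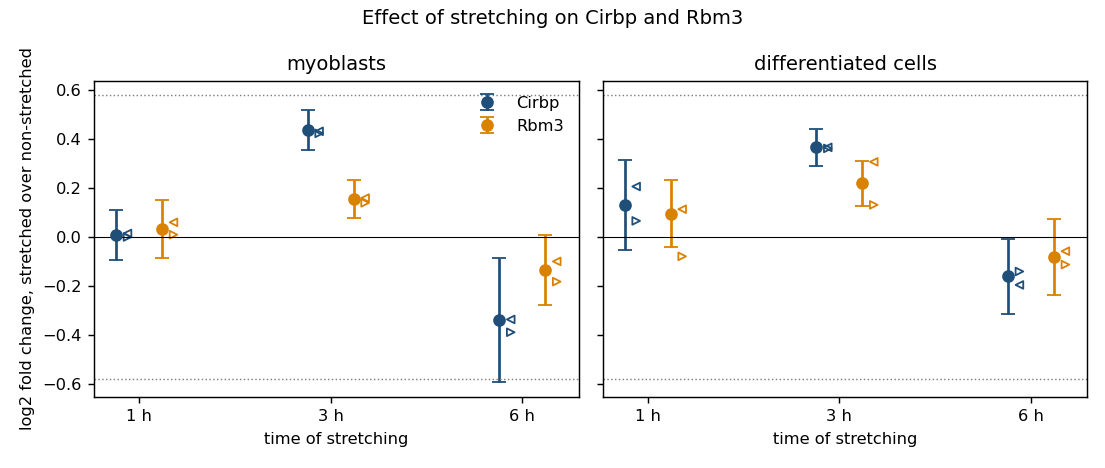
Log2 fold change of Cirbp (blue) and Rbm3 (orange) in stretched over non-stretched cells by time, for myoblasts (left) and differentiated cells (right). Filled points are edgeR estimates with 95% intervals, open triangles the differences within each of the 2 label codes, and dotted lines the limit of 0.58 in either direction. Both genes lie above 0 at 3 h in both stages, Cirbp at 0.44 and 0.37.

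After 6 h, the stretched libraries were split between low and control-like levels. Cirbp in myoblasts was at 19.4, 20.1, 20.5 and 18.5 CPM without stretching and at 12.8, 19.1, 12.7 and 17.5 CPM with it. Replicates 7 and 9 were far under every control, replicate 10 just under the lowest, and replicate 8 was among them. The means were 19.6 ± 0.851 and 15.5 ± 3.25 CPM (SD, n = 4 each), and Cirbp was lower by a log2 fold change of -0.34 (SE 0.12, 95% interval -0.59 to -0.09, adjusted p = 0.0486). That is at the edge of the threshold, which 13% of genes passed as lower. The call was lost with the label code as a covariate (adjusted p = 0.0563) and in 6 of the 8 fits that left out a library. It was lost without stretched replicate 7 (log2 fold change -0.26, adjusted p = 0.111) or 9 (-0.25, adjusted p = 0.119). It was also lost without non-stretched replicate 7 (-0.35, adjusted p = 0.0874), 8 (-0.33, 0.101), 9 (-0.32, 0.116) or 10 (-0.37, 0.0700). It stayed without stretched replicate 8 (-0.45, adjusted p = 0.00765) or 10 (-0.40, 0.0314). The log2 difference was -0.34 within B27 and -0.39 within B31.

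Cirbp in differentiated cells at 6 h was at 56.9, 55.6, 54.2 and 55.6 CPM without and at 46.1, 52.3, 44.0 and 56.4 CPM with stretching. Replicates 7 and 9 were again the lowest libraries, replicate 8 was under the controls by less, and replicate 10 was level with them. The log2 fold change was -0.16 (SE 0.07, -0.31 to -0.01, adjusted p = 0.120), which did not pass the threshold, although it did without stretched replicate 10 (-0.23, adjusted p = 0.0208). The 2 codes gave -0.19 (B25) and -0.14 (B28). As lower, 10.8% of genes passed at this time.

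Rbm3 at 6 h had the same libraries at the bottom. In myoblasts it was at 665, 647, 740.2 and 680.0 CPM without and at 565, 664, 569 and 688 CPM with stretching. Replicates 7 and 9 were below all controls, and replicates 8 and 10 were among them. The log2 fold change of -0.13 (SE 0.07, -0.28 to 0.01) had an adjusted p of 0.160, which fell under 0.05 (0.049996) only without stretched replicate 10. In differentiated cells Rbm3 was at 302, 296.5, 323 and 280.4 CPM without and at 267, 311, 254 and 306 CPM with stretching. The log2 fold change was -0.08 (SE 0.07, -0.24 to 0.07, adjusted p = 0.444). Stretched replicates 7 and 9 again lay under every control. Within the codes the log2 difference of Rbm3 was -0.10 (B27) and -0.18 (B31) in myoblasts and -0.06 (B25) and -0.11 (B28) in differentiated cells.

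The effect of stretching on Cirbp differed between times. In a fit of all 24 libraries of a stage, the effect at 6 h was below that at 3 h by 0.77 on the log2 scale in myoblasts (difference -0.77, SE 0.12, adjusted p = 3.25e-05) and by 0.53 in differentiated cells (difference -0.53, SE 0.10, adjusted p = 0.00148). For this pair of times 26.5% of genes in myoblasts and 12% in differentiated cells passed. Rbm3 differed in the same direction, by -0.29 in myoblasts (SE 0.09, adjusted p = 0.0151) and by -0.30 in differentiated cells (SE 0.09, adjusted p = 0.0274). Leaving out each of the 16 libraries of the 2 times kept the calls of Cirbp in both stages and of Rbm3 in myoblasts. The call of Rbm3 in differentiated cells was lost in 6 of 16 fits (adjusted p 0.0536 to 0.0678), namely on leaving out control 7, control 8 or stretched library 7 of 3 h, or control 9, stretched library 7 or stretched library 9 of 6 h.

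Between 3 h and 1 h, the effect on Cirbp in myoblasts grew by 0.42 on the log2 scale (SE 0.12, adjusted p = 0.0180, 10.9% of genes), and all 16 fits without a library kept the call. In differentiated cells the difference of 0.23 (SE 0.10, adjusted p = 0.218) did not pass, which 5.15% of genes did. Between 6 h and 1 h, Cirbp in myoblasts differed by -0.35 (SE 0.12, adjusted p = 0.0357, 21.1% of genes). That call was kept in 5 of 16 fits (adjusted p up to 0.0393), namely on leaving out control 9 or stretched library 8 of 1 h, or control 10, stretched library 8 or stretched library 10 of 6 h. Without any of the other 11 libraries the adjusted p was 0.0504 to 0.102. In differentiated cells the same difference was -0.29 (SE 0.10, adjusted p = 0.0587, 11.9% of genes). It passed with the label code as a covariate (-0.33, adjusted p = 0.0125). It also passed on leaving out control 7, stretched library 4 or stretched library 9 of 1 h, or stretched library 10 of 6 h (adjusted p 0.0167 to 0.0391). Rbm3 had differences of 0.12 for 3 h against 1 h in both stages, of -0.17 in myoblasts and of -0.18 in differentiated cells for 6 h against 1 h, none past the threshold (adjusted p 0.178 to 0.556).

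The stages were compared by the difference of their stretch effects, which does not need the levels to be comparable. Cirbp differed by 0.12 (95% interval -0.12 to 0.35) at 1 h, by -0.08 (-0.32 to 0.15) at 3 h and by 0.20 (-0.04 to 0.44) at 6 h, given as differentiated cells minus myoblasts. Rbm3 differed by 0.06 (-0.13 to 0.25), 0.05 (-0.14 to 0.24) and 0.07 (-0.12 to 0.26). None of the 6 passed in edgeR or had an unadjusted p under 0.05 (adjusted p 0.372 to 0.987), while 0.17%, 1.01% and 5.98% of genes passed at 1 h, 3 h and 6 h. The intervals leave room for differences of up to 0.44 for Cirbp and 0.26 for Rbm3.

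Cirbp and Rbm3 varied together between libraries of the same group in myoblasts. After the group means were removed from the log2 CPM of the 24 myoblast libraries, Pearson's r was 0.70 (permutation p = 0.0147, adjusted over the 2 stages 0.0294) and Spearman's rho 0.68 (permutation p = 0.00862, adjusted 0.0172). Without the 2 libraries farthest in Cirbp, stretched replicates 8 and 9 at 6 h, r was 0.66 (permutation p = 0.0308, adjusted 0.0616), so that the adjusted p rests on those libraries. Within the codes r was 0.92 (B27, n = 12, permutation p = 0.220) and 0.82 (B31, n = 12, permutation p = 0.313). In differentiated cells r was 0.38 (permutation p = 0.221) and rho 0.33 (permutation p = 0.213), and without the 2 farthest libraries r was 0.31 (permutation p = 0.367). Within B25 it was 0.85 (n = 12, permutation p = 0.0304) and within B28 0.62 (n = 11, permutation p = 0.873). Within a code the groups hold at most 2 libraries, so the permutations there have few arrangements.

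The heat shock genes were followed beside them because they are known to move against Cirbp and Rbm3 with temperature. The list held 20 genes of chaperones and their regulators, all tested. At 6 h, 17 of 20 rose in myoblasts, with a median log2 fold change of 0.33 over the list against 0.00004 over all genes, and 14.1% of all genes passed as higher. In differentiated cells 15 of 20 rose, with a median of 0.38 against -0.00012 and 11.5% of all genes. Hsph1, a chaperone of the HSP110 family, rose by 1.03 in myoblasts (SE 0.19, adjusted p = 0.00285) and by 0.89 in differentiated cells (SE 0.17, adjusted p = 0.00454). Dnajb1, a co-chaperone of HSP70, rose by 0.59 (SE 0.12, adjusted p = 0.00396) and 0.70 (SE 0.12, adjusted p = 0.00377). Hspa1b, an inducible HSP70, had the largest rise on the list in both stages, 1.26 and 0.94, although Hspa1a is nearly identical, so that Salmon may split reads between them. Hsf1, the main transcription factor of the heat shock response, had a log2 fold change of 0.03 (adjusted p = 0.712) and 0.02 (adjusted p = 0.782). At 3 h, 8 of 20 were higher and 2 lower in myoblasts, and 1 was higher and 2 lower in differentiated cells, with medians of 0.05 and 0.02. Of all genes, 16% and 15.8% passed at 3 h in myoblasts and 10.8% and 11.4% in differentiated cells.

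The libraries with the lowest Cirbp and Rbm3 at 6 h were the ones with the most heat shock transcripts. In myoblasts the summed level of the list was 12482, 12492, 12316 and 12567 CPM in the controls (replicates 7 to 10) and 16656, 13792, 17265 and 13810 CPM in the stretched libraries. Replicates 7 and 9 were the highest. In differentiated cells it was 8310, 8317, 8297 and 8275 CPM in the controls and 12336, 9901, 11695 and 9418 CPM in the stretched libraries. Once more replicates 7 and 9 were above replicates 8 and 10, and every stretched library was above every control. At 3 h the sums had narrower ranges, 11833 to 12514 against 12536 to 12882 CPM in myoblasts and 8010 to 8459 against 8252 to 8684 CPM in differentiated cells. In myoblasts every stretched library was thus above every control at 3 h too, the time at which Cirbp and Rbm3 were higher. At 1 h the ranges lay narrowly apart, 12250 to 12783 against 12799 to 13352 CPM in myoblasts. In differentiated cells at 1 h they were 8139 to 8343 against 8358 to 8642 CPM. Of the 20 genes, 1 was higher and 0 lower at 1 h in myoblasts, beside 1.67% and 4.24% of all genes. In differentiated cells 0 passed at 1 h, beside 0.193% and 0.47%. The sums follow the abundant genes, such as Hsp90ab1 (3724 CPM) and Hspa8 (2752 CPM) in stretched myoblasts at 3 h. There 8 of 20 were higher and 2 lower, and Hsph1 (-0.08, edgeR adjusted p = 0.148) and Dnajb1 (-0.02, 0.606) did not pass. Replicates 7 and 9 carry different label codes, as do replicates 8 and 10, and the part of heat shock in the levels of Cirbp and Rbm3 was not tested.

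**Figure D3:**
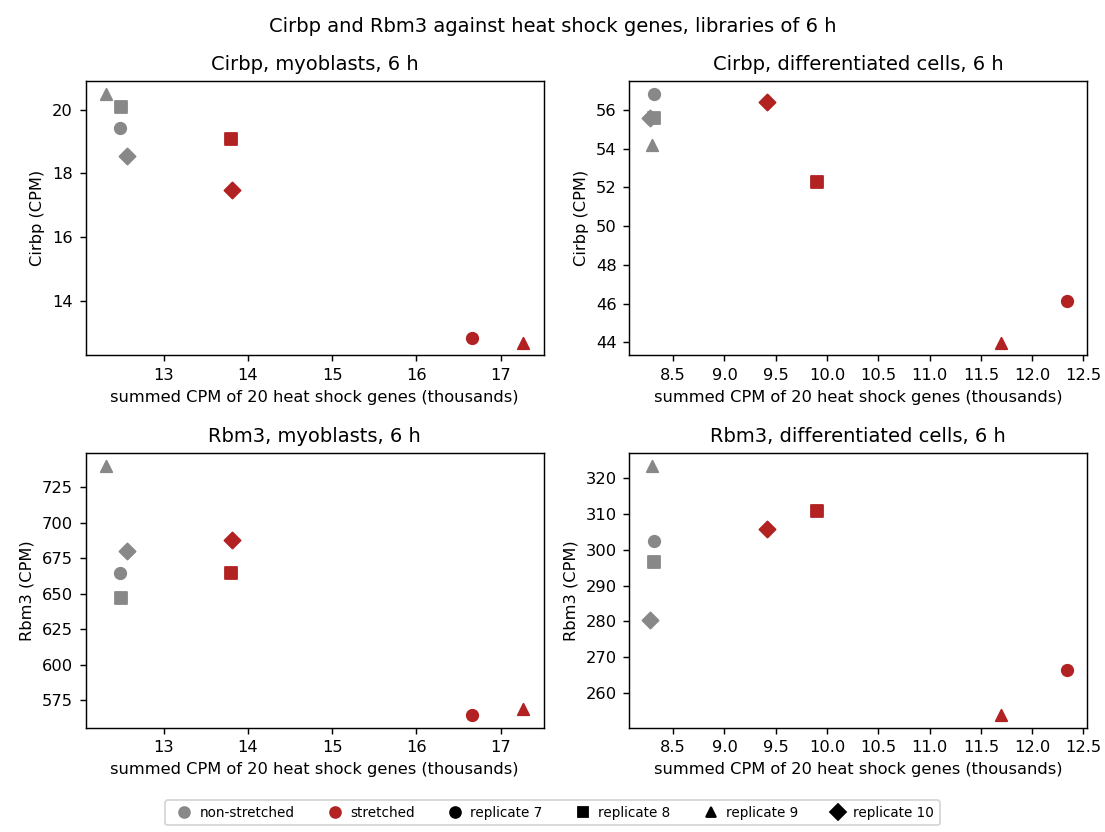
Level of Cirbp (top) and Rbm3 (bottom) in CPM against the summed CPM of 20 heat shock genes in the 8 libraries of 6 h, for myoblasts (left) and differentiated cells (right). Grey points are non-stretched and red points stretched libraries, symbols mark the replicate, and the axes do not start at 0. Stretched replicates 7 and 9 sit at the lower right of every panel.

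Other genes of related families were counted beside them. Of 41 other numbered Rbm genes, which share the RNA recognition motif, 37 were tested in each comparison. At 3 h, 13 were higher and 3 lower in myoblasts and 11 were higher and 3 lower in differentiated cells, with median log2 fold changes of 0.04 and 0.08 against -0.01 and -0.00125 over all genes. At that time 16% of all genes passed as higher and 15.8% as lower in myoblasts, and 10.8% and 11.4% in differentiated cells. At 6 h, 5 were higher and 4 lower in myoblasts, where 14.1% and 13% of all genes were, and 14 were higher and 0 lower in differentiated cells, where 11.5% and 10.8% of all genes were. With the limit of 0.58, which 1.35% of genes passed as higher and 0.823% as lower in myoblasts at 6 h and 0.518% and 1.52% in differentiated cells, 3 calls were left. Rbm24, a muscle splicing factor, was lower in myoblasts at 3 h (-0.61, SE 0.21, adjusted p = 0.0407) and 6 h (-0.76, SE 0.20, adjusted p = 0.0179), at a low level of 1.18 and 0.843 CPM in the controls. Rbm8a2 was higher in differentiated cells at 6 h (0.87, SE 0.25, adjusted p = 0.0295), at only 0.164 CPM in the controls.

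The cold shock domain genes, which carry a different RNA-binding domain, number 8 here, of which 5 were tested in myoblasts and 6 in differentiated cells. At 3 h in myoblasts 3 were higher and 0 lower, beside 16% and 15.8% of all genes. Ybx1 (0.08, adjusted p = 0.0229) and Ybx3 (0.10, adjusted p = 0.0225) were among those that were higher. At 3 h in differentiated cells 0 passed in either direction, beside 10.8% of all genes as higher and 11.4% as lower. The same held at 6 h in myoblasts, beside 14.1% and 13%. At 6 h in differentiated cells 0 were higher and 1 was lower, Csdc2 (-0.31, adjusted p = 0.00508), beside 11.5% and 10.8% of all genes.

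Of 12 partners, regulators and targets of CIRBP and RBM3, 11 were tested. At 3 h in myoblasts 5 were higher and 0 lower, beside 16% and 15.8% of all genes. They were Prmt1 (0.14, adjusted p = 0.000635), the main protein arginine methyltransferase, Gsk3b (0.11, 0.00742), a kinase, Tnpo1 (0.10, 0.0144), which imports proteins into the nucleus, Rpa2 (0.12, 0.0285), a subunit of the single-strand DNA-binding protein RPA, and Txn1 (0.09, 0.00889), thioredoxin. In differentiated cells at 3 h, where 10.8% of all genes passed as higher and 11.4% as lower, Prmt1 (0.15, 0.00296) and Gsk3b (0.17, 0.00703) were higher and Tlr4 (-0.20, 0.00636), an innate immune receptor, was lower. At 6 h in myoblasts, where the shares were 14.1% and 13%, Sp1 (-0.16, 0.00796) and Atr (-0.24, 0.00489), a kinase of the DNA damage response, were lower and Tlr4 (0.14, 0.0164) was higher. In differentiated cells at 6 h, where they were 11.5% and 10.8%, Hnrnph1 (0.41, 0.000875), Tnpo1 (0.22, 0.0230) and the circadian factor Clock (0.14, 0.0186) were higher. Values in these parentheses are log2 fold changes and adjusted p of edgeR.

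**Figure D4:**
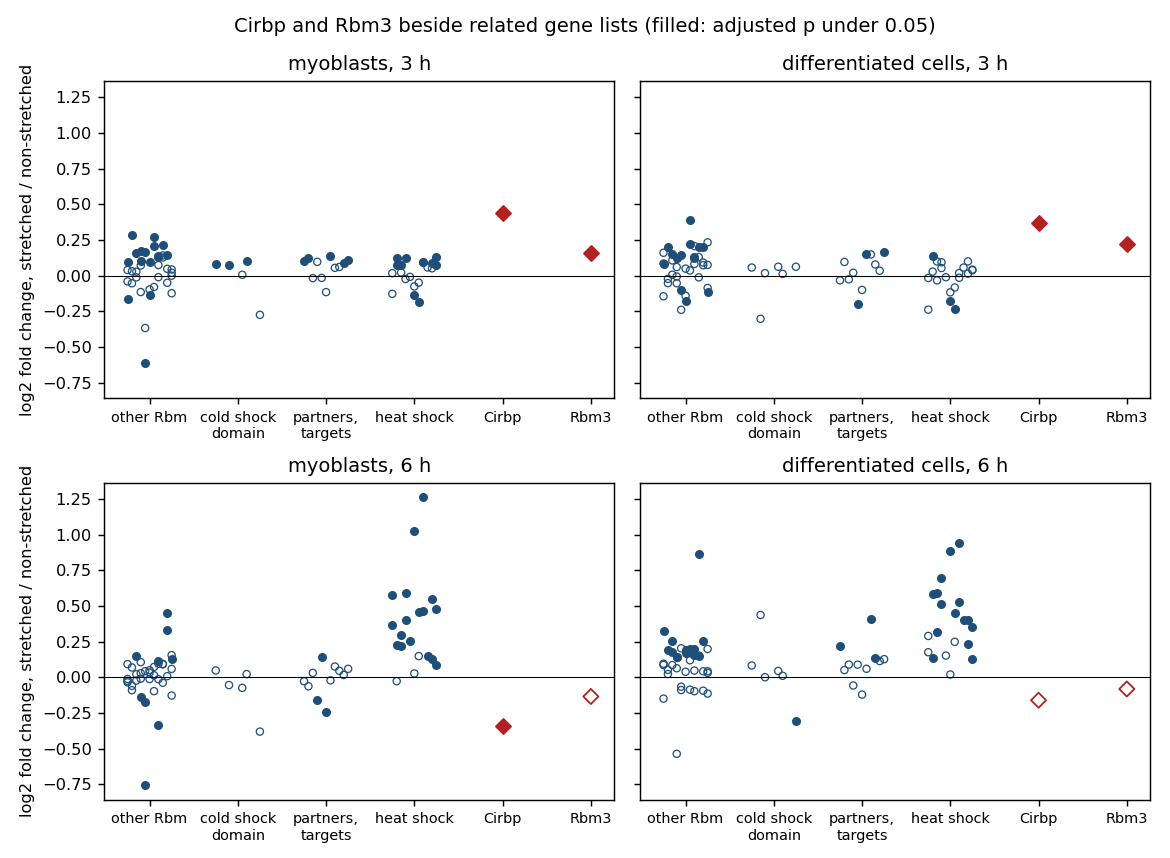
Log2 fold change, stretched over non-stretched, at 3 h (top) and 6 h (bottom) in myoblasts (left) and differentiated cells (right) for each tested gene of 4 lists and for Cirbp and Rbm3 (red). Filled symbols have an adjusted p under 0.05 and open ones do not. At 3 h Cirbp, at 0.44 and 0.37, stands above most of the points, and at 6 h the heat shock genes reach 1.26 and 0.94.

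The genes next to Cirbp and Rbm3 on the chromosomes were read in the same fits. Midn, 7616 bases before Cirbp, was higher in myoblasts at 3 h (0.17, adjusted p = 0.00584) and at 6 h (0.09, adjusted p = 0.0404). 1600002K03Rik, which starts 157 bases after Cirbp on the same strand, was higher in myoblasts at 6 h (0.30, adjusted p = 0.0255). At that time the call of Cirbp as lower was at the edge of the threshold. Wdr13, next to Rbm3, was lower in myoblasts at 3 h (-0.12, adjusted p = 0.0456), and Tbc1d25 on its other side had adjusted p of 0.205 to 0.805 throughout. Of all genes in myoblasts, 16% passed as higher and 15.8% as lower at 3 h, and 14.1% and 13% at 6 h. In differentiated cells none of these neighbours passed at any time (adjusted p 0.0649 to 0.968).

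Over the 24 libraries of a stage, the genes whose log2 CPM was most like each member were found by Pearson's r, leaving out genes that averaged under 5 CPM. These r are descriptions over libraries that share stretching, time and depth. In myoblasts, Cirbp was most like Smarcd1 (0.98), Hnrnpdl (0.96) and Ezr (0.96) and most opposite to Uhmk1 (-0.97), Mmaa (-0.96) and Prmt2 (-0.96), of 10130 genes. Rbm3 was most like Cwc27 (0.94), Prkg2 (0.94) and Xrn2 (0.93) and most opposite to Ccnd3 (-0.93), Trim46 (-0.92) and Isyna1 (-0.91). In differentiated cells, Cirbp was most like Borcs7 (0.92), Dazap2 (0.91) and Otulin (0.90) and most opposite to Mogs (-0.92), Nfkb2 (-0.92) and Gne (-0.91), of 10472 genes. Genes most like Rbm3 included Csnk1a1 (0.94) and Sdc1 (0.94), and it was most opposite to Hoxc6 (-0.94), Znfx1 (-0.93) and Zfhx2 (-0.92). The r between Cirbp and Rbm3 was 0.84 in myoblasts, where Cirbp was number 84 for Rbm3 and Rbm3 number 234 for Cirbp. It was 0.83 in differentiated cells, where Cirbp was number 87 for Rbm3 and Rbm3 number 33 for Cirbp. Hnrnpdl, which encodes an RNA-binding protein of the hnRNP family, had log2 fold changes of 0.38 at 3 h and -0.33 at 6 h in myoblasts, beside 0.44 and -0.34 for Cirbp. Hnrnpdl was picked by its r over these same libraries, so this likeness is not a separate result. With Spearman's rho in place of r, only 2 of the 6 genes named for Cirbp in myoblasts were named again, 2 of 6 in differentiated cells, and 1 of 6 for Rbm3 in each stage.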

How the data were processed

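The authors made stranded mRNA libraries from washed C2C12 cells (the labels name the molecule nuclear RNA), aligned the reads to mm10 with STAR, quantified them with Salmon and deposited, for each stage, whole-number counts that had not been normalized (47480 gene symbols, all 48 columns used). Reads that fit several transcripts are apportioned by Salmon, so counts of genes with shared sequence depend on that step. Whether its counting used strand is not given in the sources used here. Library totals were 48447318 to 77080730.

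Groups follow the stage, time and stretching named in the labels. By the study's methods, the 4 myoblast samples of a group came from 2 independent experiments with 2 separate samples each, and those of differentiated cells from 3 experiments. The labels do not say which experiment a library belongs to, and samples of 1 experiment are not fully independent, so p-values may be too small. The label codes are 2 in myoblasts and, apart from 1 library, 2 in differentiated cells. A stretched myoblast library at 1 h (replicate 9) carries the code B231 and was treated as B31. Genes were filtered with filterByExpr and scaled with TMM, and the 8 libraries of a time were compared with edgeR 4.0.16 (quasi-likelihood test, two-sided, Benjamini-Hochberg over all genes tested) in R 4.3.3. The time and stage differences are interaction terms in fits of 24 and 48 libraries. Log2 CPM used a prior count of 1. Correlations used 100000 two-sided permutations of libraries within groups (SciPy 1.17.1). Transcript positions and 31-base stretches came from GENCODE vM21 (45213 symbols matched, 95.2%), and promoters from RefSeq (GRCm38.p6). The scripts were tested on simulated data.

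Alternatives were DESeq2 1.42.0 with its size factors, RLE, upper quartile and library total scaling, no filter, a minimum of 10 counts per library, all 24 libraries of a stage together, the label code as a covariate, a replicate block, leaving out each library, glmTreat, and Spearman's rho. The members and lists were chosen with earlier results of these data known. The genes named are the members, their lists (other Rbm genes only with the limit of 0.58), the nearest protein coding genes and the 3 genes most and least like each member, of which some are not reported here.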

Additional observations from a re-analysis of the deposited data

Results flagged for a closer look

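The effect of stretching on Cirbp and Rbm3 differed between times in 6 tests of the difference itself (edgeR, interaction term, 24 libraries of a stage). Each gene was tested in each stage for each pair of times, and the remaining tests did not pass. In myoblasts, the effect on Cirbp at 3 h exceeded that at 1 h by 0.42 on the log2 scale (adjusted p = 0.0180), the effect at 6 h minus that at 1 h was -0.35 (adjusted p = 0.0357), and the effect at 6 h minus that at 3 h was -0.77 (adjusted p = 3.25e-05). For Rbm3 in myoblasts, the effect at 6 h minus that at 3 h was -0.29 (adjusted p = 0.0151). In differentiated cells the same difference was -0.53 for Cirbp (adjusted p = 0.00148) and -0.30 for Rbm3 (adjusted p = 0.0274). Of all genes in myoblasts, 10.9% passed for 3 h against 1 h, 21.1% for 6 h against 1 h and 26.5% for 6 h against 3 h. For the last pair 12% passed in differentiated cells. The differences of Cirbp between 6 h and 1 h in myoblasts and of Rbm3 between 6 h and 3 h in differentiated cells were lost in 11 and 6 of 16 fits that left out a library, and the others in none.

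In none of the 12 groups of 4, checked for each of the 2 genes, did a single library lie apart from the other 3 by Dixon's criterion (0.829). That criterion does not find groups of 4 that split into pairs, as the stretched libraries of 6 h did.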

How the results depend on the processing

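Cirbp at 3 h was called in both stages by every fit except glmTreat, with log2 fold changes of 0.39 to 0.44 in myoblasts and 0.34 to 0.37 in differentiated cells, and leaving out single libraries gave 0.41 to 0.46 and 0.35 to 0.39. Rbm3 at 3 h in differentiated cells behaved in the same way (0.19 to 0.22, leaving out libraries 0.19 to 0.24). In glmTreat the 5 called values were 0.44, 0.16 and -0.34 in myoblasts (Cirbp and Rbm3 at 3 h, Cirbp at 6 h) and 0.37 and 0.22 in differentiated cells (3 h), all with an adjusted p of 1. Rbm3 in myoblasts at 3 h lost its call with library totals alone (0.11) and with all 24 libraries (0.15), but not on leaving out libraries (0.13 to 0.19). Cirbp in myoblasts at 6 h lost it with the label code as a covariate (-0.34), and leaving out libraries gave -0.45 to -0.25. The cause was not tested. At 1 h in myoblasts Cirbp turned to -0.00081 with upper quartile scaling and -0.0243 with library totals, and Rbm3 to -0.00029 with library totals. Leaving out libraries gave -0.0208 to 0.0443 for Cirbp and 0.00250 to 0.0891 for Rbm3 there, and, at 6 h, -0.184 to -0.0911 for Rbm3 in myoblasts and -0.23 to -0.10 for Cirbp and -0.13 to -0.03 for Rbm3 in differentiated cells. In differentiated cells at 1 h it gave 0.06 to 0.18 for Cirbp and 0.05 to 0.15 for Rbm3.

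For the differences between times, leaving out each library was added after the data were seen. For 6 h against 3 h it gave -0.89 to -0.69 for Cirbp and -0.34 to -0.24 for Rbm3 in myoblasts, and -0.59 to -0.47 and -0.35 to -0.25 in differentiated cells. For 6 h against 1 h it gave -0.46 to -0.26 and -0.22 to -0.12, and -0.36 to -0.23 and -0.24 to -0.13. For 3 h against 1 h it gave 0.39 to 0.46 and 0.07 to 0.16, and 0.18 to 0.30 and 0.07 to 0.17. The difference of Cirbp between 6 h and 1 h in differentiated cells passed with the label code as a covariate (-0.33).

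Correlations of same-numbered libraries were weak, -0.05 to 0.10. With 4 controls to match, the stretched library correlated best with its own number in 11 of 23 pairs. Whether the replicate numbers pair the samples was not tested, and the main fits did not pair them. With a replicate block, the difference of Cirbp between 6 h and 1 h in differentiated cells passed (-0.35, adjusted p = 0.0108). The block changed no other call of Cirbp or Rbm3, and the number of genes called was 56 against 42 in differentiated cells at 1 h. There DESeq2 called 98 genes with the limit of 0.58. The correlation of Cirbp and Rbm3 within codes was 0.92 and 0.82 in myoblasts, without passing, and 0.85 within B25 in differentiated cells, passing before adjustment. With library totals alone, the genes called at any fold were 128 higher and 792 lower (250 and 634 with TMM) in myoblasts at 1 h, 1139 and 3518 (2373 and 2346) at 3 h and 1639 and 2466 (2111 and 1949) at 6 h, and in differentiated cells 1017 and 2188 (1676 and 1767) at 3 h and 1150 and 1836 (1772 and 1666) at 6 h. Upper quartile scaling gave 1826 and 2753 in myoblasts at 3 h, and 1345 and 2155 at 3 h and 1319 and 2032 at 6 h in differentiated cells.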
